A study of Rattus norvegicus with 58 samples.

Results

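Synovial tissue of healthy rats was compared after 5 and after 3 days of RTD-1, in 10 of the 58 RNA-seq libraries of a rat arthritis study. The 10 libraries were chosen by their titles: 5 from healthy rats given RTD-1 for 5 days and 5 from healthy rats given it for 3 days. RTD-1 was given under the skin in saline at 5 mg per kg, and no arthritis was induced in these animals. The strain is stated once for the whole series, as female DA/OlaHsd rats, in a protocol that describes arthritis induced with 250 µl of pristane at 6 to 8 weeks of age. The sources used here do not give a separate age for the healthy rats. The series holds no healthy group given saline, so an effect of RTD-1 between the days cannot be told apart from one of time. The other groups drawn on are arthritic (pristane-induced arthritis, PIA) rats on RTD-1 (n = 8 at 5 days and n = 8 at 3 days), untreated PIA rats (n = 4) and naive rats (n = 4).

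RTD-1, rhesus theta-defensin 1, is a small cyclic peptide from the leukocytes of rhesus macaques. It belongs to the innate immune defence and is known to damp the release of inflammatory cytokines by stimulated leukocytes. The synovium is the thin lining of the joint, made of fibroblasts and macrophages over a looser layer with vessels, nerves and fat. In arthritis it thickens and fills with leukocytes, whereas in a healthy joint it is a quiet tissue. A comparison of longer with shorter dosing in healthy joints asks whether synovial transcripts change as exposure goes on when there is no inflammation to act on.

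The deposited table identifies genes by Ensembl identifier, and the reference table used here pairs 0 of 16879 identifiers with a symbol. The tissue label could therefore not be set against marker genes, and genes are given by identifier with no statement of their function. Values below are normalized reads, that is, recovered whole reads scaled to the depth of the median of the 10 libraries. Folds are log2 differences of normalized reads + 1, day 5 minus day 3, and the added 1 makes them too small for low genes.

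The 2 days did not have quite the same depth. Day 5 libraries held 7212116, 7716834, 6592102, 6396051 and 5783727 reads in genes, and day 3 libraries held 6183258, 4437281, 5545864, 5430002 and 5180433. The mean was 1.26 times as high on day 5, and the groups overlapped through replicate 5 of day 5 and replicate 1 of day 3 (two-sided exact permutation p = 0.0159, 0.0397 after adjustment over 5 library measures). Genes with no read numbered 924.4 ± 382 in day 5 libraries and 1369 ± 517 in day 3 libraries (SD, 5 libraries a day, exact permutation p = 0.159, adjusted 0.198). Replicate 2 of day 3 was both the shallowest library and the one with the most genes at 0.

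No gene was called between day 5 and day 3. Of 12933 genes tested, limma called 0 (0%) at a Benjamini-Hochberg adjusted p under 0.05, and the lowest adjusted p was 0.999. At an unadjusted p under 0.05 there were 330 genes (2.55%), 173 higher (1.34%) and 157 lower (1.21%) on day 5. The balance of directions depended on the scaling, with 155 higher and 254 lower under TMM factors. It also depended on single libraries. There were 470 higher and 121 lower without replicate 5 of day 5, and 107 higher and 190 lower without replicate 2 of day 5. limma voom on the recovered reads also called 0 genes, with 316 at an unadjusted p under 0.05. With every library thinned to 4437281 reads, which removes the difference in depth, the count was again 0, with 319 genes at an unadjusted p under 0.05. The median fold over all genes was 0.042 log2, and the 5th and 95th percentiles were -0.30 and 0.46. Since the labels tie no library to an animal, the p-values stand for spread among libraries, which may be partly technical.

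**Figure D1:**
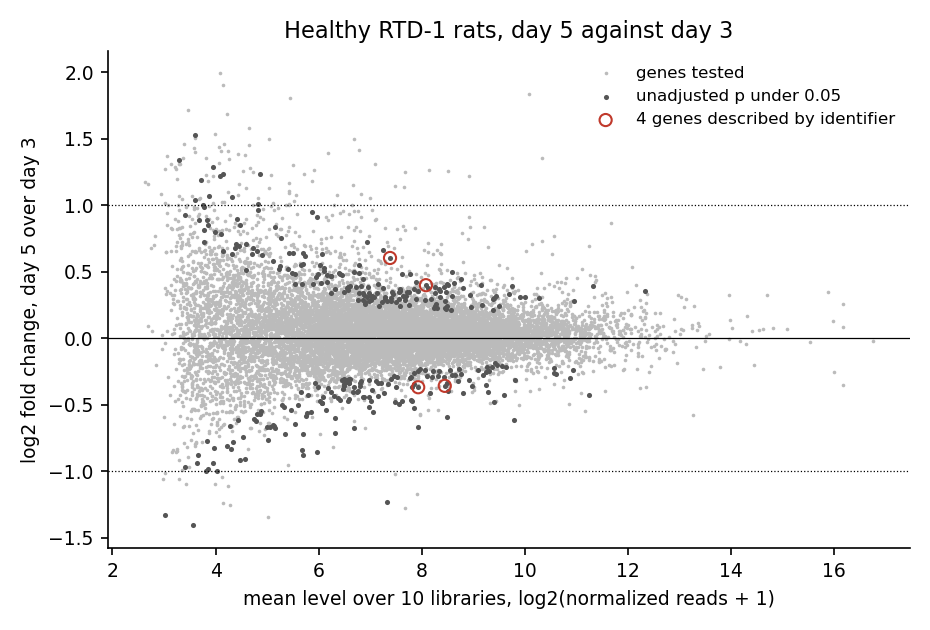
Log2 fold change of day 5 over day 3 (vertical axis) against the mean level over the 10 healthy RTD-1 libraries (horizontal axis, log2 of normalized reads + 1) for 12933 genes. Dark points are the 330 genes with an unadjusted p under 0.05, circles are the 4 genes described by identifier, dotted lines mark 2-fold, and the cloud narrows around 0 as the level rises.

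The 95% intervals of the folds show how large a difference these 10 libraries leave room for. For 10942 genes (84.6%) the interval lay wholly within 2-fold in either direction, and for 7517 genes (58.1%) it lay within 1.5-fold. The share depended on the level of the gene. Among the 2397 genes with a mean log2 level of 9 or more, 95.7% had an interval within 2-fold and 83.6% within 1.5-fold, with a median standard error of 0.13 log2. Among the 4762 genes with a level from 7 to 9, 95.6% lay within 2-fold. Among the 3820 genes from 5 to 7 the share was 87.0%, and among the 1954 genes under 5 it was 39.4%, with a median standard error of 0.37. For abundant transcripts a 2-fold difference between the days lay outside nearly every interval, while for most of the rarest ones the interval reached 2-fold in at least 1 direction.

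The genes with the lowest p in each direction are given as the nearest to a difference, none of which passed the test. ENSRNOG00000007370 had 218, 177, 237, 194 and 204 normalized reads in day 5 libraries, against 136, 138, 143, 110 and 149 in day 3 libraries. Every day 5 library was above every day 3 library. The log2 fold change was 0.60 (SE 0.124, 95% interval 0.33 to 0.87, limma adjusted p = 0.999, unadjusted 0.000338). Naive tissue, scaled the same way, ranged from 139.5 to 303.4 normalized reads for this gene, so all 5 day 5 libraries lay within the naive range and 3 of the 5 day 3 libraries lay below it.

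ENSRNOG00000050578 had 318, 297, 346, 338 and 259 normalized reads on day 5, against 233, 228, 248, 242 and 224 on day 3. The groups did not overlap, although replicate 5 of day 5 came close to the highest day 3 library. The log2 fold change was 0.40 (SE 0.105, interval 0.17 to 0.63, limma adjusted p = 0.999, unadjusted 0.00229). Naive libraries held 130.3 to 279.0 normalized reads of it.

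In the other direction, ENSRNOG00000002080 had 364, 302, 285, 286 and 305 normalized reads on day 5, against 362, 414, 387, 421 and 389 on day 3. The groups overlapped through replicate 1 of each day. The log2 fold change was -0.36 (SE 0.100, interval -0.57 to -0.14, limma adjusted p = 0.999, unadjusted 0.00351). ENSRNOG00000032441 had 217, 205, 188, 242 and 221 normalized reads on day 5, against 280, 285, 295, 243 and 281 on day 3. Here replicate 4 was the highest library of day 5 and the lowest of day 3, less than 1 normalized read apart, and the groups did not overlap. The log2 fold change was -0.37 (SE 0.105, interval -0.60 to -0.14, limma adjusted p = 0.999, unadjusted 0.00395). All 4 genes kept their direction whichever library was left out. They were chosen for a low p in these same libraries, so this was largely built in. Where the groups did not overlap, leaving out a library cannot turn the sign.

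**Figure D2:**
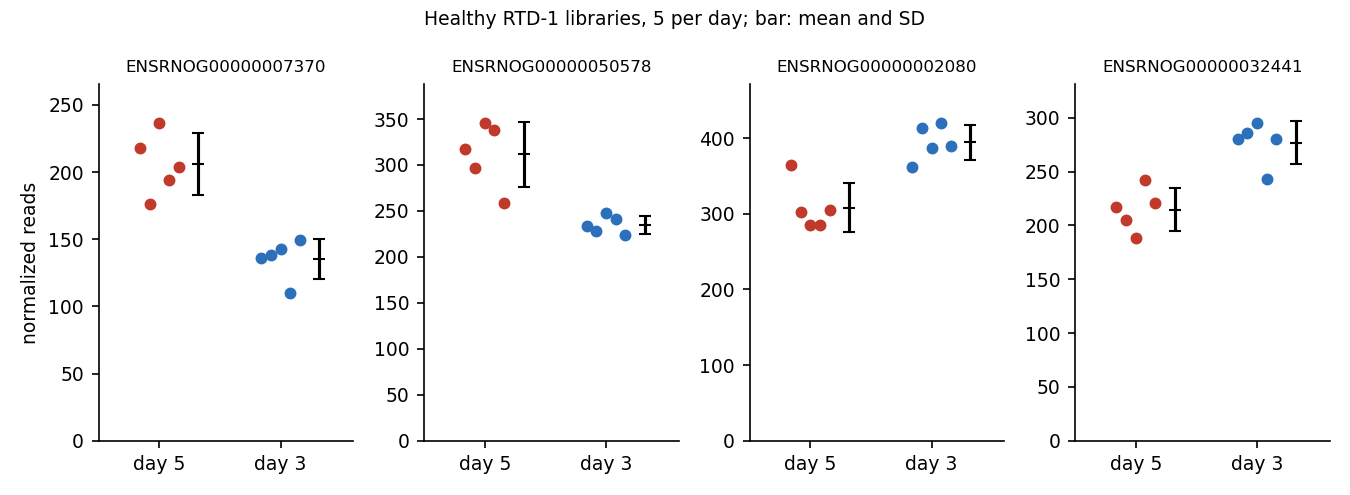
Normalized reads of 4 genes (1 panel each, vertical axis from 0) in the 5 day 5 libraries and the 5 day 3 libraries, with replicates 1 to 5 from left to right and the mean and SD beside them. The 2 left-hand genes are higher and the 2 right-hand genes lower on day 5, with differences of about the size of the range within a day, and none passed the test over 12933 genes.

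Complete separation of the days was rare. It was seen for 54 of 12933 genes (0.418%), 23 with every day 5 library higher (0.178%) and 31 with every day 5 library lower (0.24%). Their folds ran from -0.94 to 1.22 log2, with a median size of 0.32, and only 1 of them reached 2-fold. Of the 54, 44 had an unadjusted p under 0.05. Random assignment of the 10 libraries to the days would separate a gene with a probability of 0.00794. Separation alone therefore does not show a difference. Folds of at least 2-fold were estimated for 116 genes, 76 of them at a mean log2 level under 5.

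The larger differences lay between individual libraries rather than between the days. Pearson correlations of log2 levels across the 12933 genes had a median of 0.953 within day 5 and of 0.953 within day 3 (10 pairs each), and of 0.962 for the 25 pairs that set a day 5 with a day 3 library. Genes are not independent replicates, and the pairs share libraries, so these are descriptions. A day 5 library was thus on the whole as like a day 3 library as one of its own day. The lowest correlation of all, 0.872, was between replicate 3 of day 5 and replicate 2 of day 3. These 2 libraries also formed the ends of the first principal component, which held 37.4% of the variance. Replicate 3 of day 5 was at -66.5 and replicate 2 of day 3 at 53.0, and the other 8 libraries lay between -22.0 and 27.7 with the days interspersed.

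**Figure D3:**
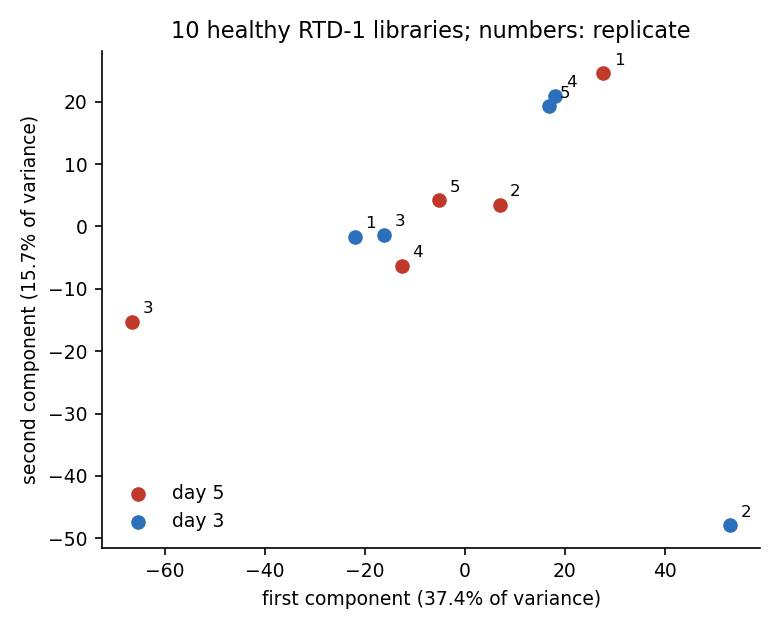
First principal component (horizontal axis, 37.4% of variance) against the second (vertical axis, 15.7%) for the 10 healthy RTD-1 libraries, coloured by day and numbered by replicate. Replicate 3 of day 5 and replicate 2 of day 3 stand apart at opposite ends, and the other 8 libraries of both days lie among each other.

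A group of 218 genes, defined after the values were seen, had a within-day SD of at least 1 log2 at a mean log2 level of 5 or more. The levels of 138 of them (63.3%) had a correlation below -0.7 with the first component over the 10 libraries, against 11.3% of all genes tested, and 79 lay between -0.7 and 0.7. Replicate 3 of day 5 held the highest value for 146 of them (67.0%), against 21.6% of all genes tested. Replicate 2 of day 3 held the lowest value for 106 (48.6%), against 21.6% of all genes tested. Genes with a large spread in these libraries also weigh most in the first component. These contrasts with all genes were therefore partly built in and are descriptions only. Set against its mean over the 10 libraries, the median gene of the group was 2.37 log2 higher in replicate 3 of day 5 and 1.49 log2 lower in replicate 2 of day 3. The other 4 day 5 libraries ran from -1.01 to 0.49, and the other 4 day 3 libraries from -0.59 to 0.75. Naive libraries, at -0.66, -1.35, -0.24 and 0.51, covered much of that range. The same genes also varied in naive rats: 97 of 218 (44.5%) had an SD of at least 1 log2 among the 4 naive libraries, against 7.65% of all genes tested.

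ENSRNOG00000009345 and ENSRNOG00000048273 had the largest within-day SD of the group. ENSRNOG00000009345 had 5.64, 26.7, 1768, 87.5 and 119 normalized reads on day 5, against 255, 0, 118, 19.5 and 9.60 on day 3. ENSRNOG00000048273 had 185, 403, 25978, 4544 and 3985 normalized reads on day 5, against 9020, 54.6, 3193, 102 and 374 on day 3. In both genes the highest library was replicate 3 of day 5 and the lowest was replicate 2 of day 3, and the days overlapped widely. In naive tissue ENSRNOG00000048273 ranged from 224 to 3788 normalized reads. Its log2 fold change between the days was 1.83 with an interval of -2.31 to 5.97 (SE 1.82, limma adjusted p = 0.999).

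**Figure D4:**
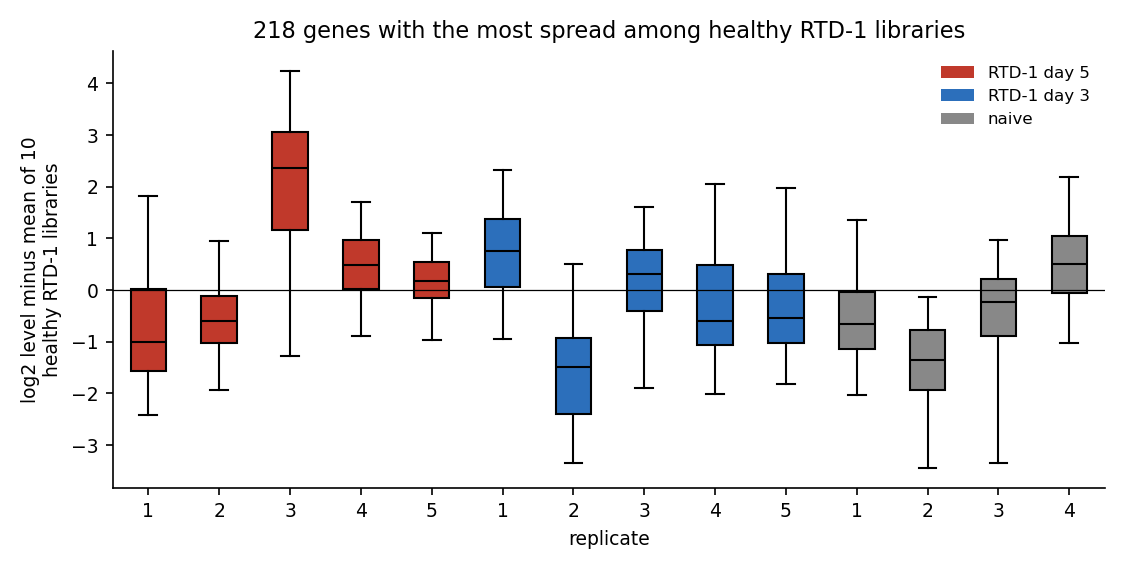
Log2 level minus the mean of the 10 healthy RTD-1 libraries (vertical axis) for the 218 genes with the most spread within a day, in each day 5, day 3 and naive library. Boxes span the quartiles with the median as a line, whiskers the 5th to 95th percentile, and replicate 3 of day 5 (median 2.37) and replicate 2 of day 3 (median -1.49) lie farthest from 0.

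The large fold estimates leaned on single libraries. At a mean log2 level of 5 or more, 40 genes had an estimate of at least 2-fold, 35 higher and 5 lower on day 5. Of the 40, 33 had their highest value in replicate 3 of day 5, and 29 had their lowest in replicate 2 of day 3. Without replicate 3 of day 5, 5 of the 40 kept a 2-fold estimate of the same sign, and without replicate 2 of day 3, 6 did. Without both, 22 of the 40 turned to the other sign, and of the 16 genes then estimated at 2-fold or more, 1 was higher and 15 were lower on day 5. limma called 0 genes in each of these fits. The 40 genes were chosen for their folds in these same libraries, and the 2 libraries for their extreme values. Smaller folds and turned signs were therefore partly built in, and no other pair was left out for comparison. What sets these 2 libraries apart was not tested. Because this is bulk tissue, more cells of a type and more RNA per cell cannot be told apart.

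Spread within a day was lower than in the arthritic RTD-1 groups and in naive rats. Over the 12933 genes, the median SD of a gene was 0.28 log2 among day 5 libraries and 0.25 among day 3 libraries (n = 5 each). It was 0.39 and 0.48 in PIA rats given RTD-1 for 5 and 3 days (n = 8 each), and 0.40 in naive rats (n = 4). Among the 2397 genes with a log2 level of 9 or more the medians were 0.22 and 0.16 on the healthy days, 0.28 and 0.36 in those arthritic groups, and 0.33 in naive rats. Reads in genes ran from 4437281 to 7716834 in the healthy RTD-1 libraries, from 464693 to 3753844 in those arthritic libraries and from 1573925 to 2396818 in naive libraries, and the part of depth in this order was not tested.

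Genes that respond to arthritis were looked at separately. They were defined by the contrast of untreated PIA with naive tissue, in a fit of all 58 libraries in which the 10 healthy RTD-1 libraries entered the shared estimate of spread but neither mean. Of 3219 genes that differed at least 2-fold in that contrast (limma adjusted p under 0.05), 2991 were among the genes tested here, which is 23.9% of the 12523 genes that passed the expression filters of both fits (14.5% higher and 9.4% lower in arthritis). Among the 1814 that are higher in arthritis, 24 were higher and 17 lower on day 5 at an unadjusted p under 0.05 (2.26%, against 2.55% of all genes), and the median fold was 0.065 log2, against 0.042 over all genes. Among the 1177 that are lower in arthritis, 11 were higher and 24 lower (2.97%), and the median fold was 0.019. Both shares were near that of all genes. On a score that puts the naive mean at 0% and the untreated PIA mean at 100%, day 5 libraries stood at 10.7%, 7.76%, 5.54%, 5.21% and 2.39%, and day 3 libraries at 6.53%, 5.08%, 3.90%, 6.47% and 7.49%. Among these 10 libraries the highest and the lowest score both came from day 5, and the days overlapped. Naive libraries stood at -1.87%, -1.59%, -0.586% and 4.05%, so their range reached into that of both days.

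The gene that rose most in arthritis, ENSRNOG00000002548, had 172, 4.05, 121, 20.3 and 37.1 normalized reads on day 5, against 16.7, 12.7, 32.8, 51.4 and 66.1 on day 3. Untreated PIA libraries held 10290 to 54728 on the same scale and naive libraries 16.5 to 74.1, so the 2 highest day 5 libraries exceeded naive tissue but stayed far below arthritic tissue. Its log2 fold change was 0.32 (SE 0.926, interval -1.75 to 2.38, limma adjusted p = 0.999), and the sign turned without replicate 1 or replicate 3 of day 5, to -0.22 and -0.10. The gene that fell most in arthritis, ENSRNOG00000013552, had 83053, 81574, 32250, 76274 and 69482 normalized reads on day 5, against 70795, 127462, 97930, 64341 and 68910 on day 3. Naive libraries held 45721 to 81261, and untreated PIA libraries 38.7 to 110.6. The log2 fold change was -0.35 (SE 0.286, interval -0.97 to 0.27, limma adjusted p = 0.999). The 2 libraries that stand apart were again the extremes, with replicate 3 of day 5 lowest and replicate 2 of day 3 highest, and without both of them the fold was 0.056.

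The step from 3 to 5 days of RTD-1 was then set against the same step in arthritic rats. The direct test of the difference, an interaction in a limma fit of the 26 libraries of the 4 RTD-1 groups, called 0 of 13833 genes (0%), with a lowest adjusted p of 0.756. At an unadjusted p under 0.05 it gave 915 genes (6.61%), 706 higher (5.1%) and 209 lower (1.51%) in healthy minus arthritic rats. This split depended on the scaling, with 525 higher and 574 lower under TMM factors and 490 higher and 616 lower under quantile normalization. It also depended on the arthritic libraries used. There were 2364 higher and 415 lower with PIA replicates 1 to 4 only, and 230 higher and 448 lower with PIA replicates 5 to 8 only. limma voom also called 0, with 1615 at an unadjusted p under 0.05. The standard error of the interaction had a median of 0.34 log2, against 0.18 for the healthy fold alone. With PIA replicates 1 to 4 only the interaction called 10 genes, 7 higher and 3 lower in the healthy comparison, and with PIA replicates 5 to 8 only it called 0.

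In arthritic rats the same fit called 51 genes between day 5 and day 3 of RTD-1 (0.369%), 25 higher (0.181%) and 26 lower (0.188%), and 50 of them were tested in the healthy libraries. In healthy rats 0 of the 50 were called, as for all genes (0%), and 1 had an unadjusted p under 0.05, where 2.55% of all genes did. The 24 tested genes that were higher on day 5 in arthritic rats had a median log2 fold of 0.022 in healthy rats, against 2.15 in arthritic rats. The 26 that were lower in arthritic rats had a median of -0.034 in healthy rats, against -0.79. The healthy folds of the 50 genes ran from -0.54 to 0.49, and for 42 of them the healthy interval lay within 2-fold. The 51 genes were chosen for their size in arthritic rats. The healthy libraries also entered the estimate of spread in that fit, which favours genes with little spread among them. Small healthy folds and narrow healthy intervals were therefore partly built in. Each of the 51 had a limma interaction adjusted p of at least 0.756 in the main fit. That fit therefore did not show a difference between healthy and arthritic rats for any of them, and the interaction calls varied with the setting. The arthritic list itself depended on the setting. It held 382 genes (224 higher, 158 lower) under TMM factors, 115 (49 higher, 66 lower) with all 58 libraries in the fit, 1606 (293 higher, 1313 lower) with PIA replicates 1 to 4 and 8 (8 higher, 0 lower) with PIA replicates 5 to 8. Leaving out 1 arthritic library at a time gave between 2 and 1065 calls there, and moved the count by more than 1.5 times for 15 of the 16 libraries, all but replicate 4 of day 5. Over all 21 ways in which that list was drawn, the healthy median stayed between -0.16 and 0.38 log2 for the higher genes and between -0.12 and 0.056 for the lower ones. These lists share libraries, so they are not independent of each other.

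**Figure D5:**
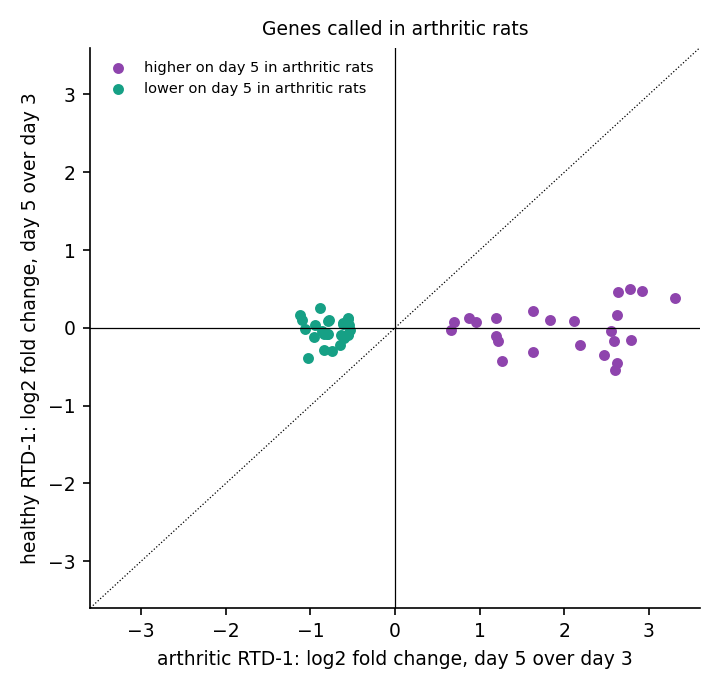
Log2 fold change of day 5 over day 3 in healthy RTD-1 rats (vertical axis) against that in arthritic RTD-1 rats (horizontal axis) for the 50 genes called in arthritic rats and tested in both. Healthy folds lie between -0.54 and 0.49 whichever way the gene moved in arthritic rats, and the dotted line marks equal folds.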

How the data were processed

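Libraries of synovial RNA came from a kit that keeps strand, and single reads had a length of 75 nt, per the labels' protocols. HISAT is among the tools in the submitters' processing notes, with no version; which genome build was used is not given in the sources used here. Each deposited number is the log2 of whole reads over 1 factor per library, and 0 reads stand as 0.9. All values above 0 (100%) gave whole reads within a relative tolerance of 0.001. That tolerance grows with the count, so at high counts any value passes and only lower counts test the recovery. The recovered reads were scaled to the median factor of the 10 healthy RTD-1 libraries, or of all 58 libraries for the arthritis genes and score. The 1 row without an identifier, 0.00708% to 0.0137% of their reads, was left out of totals and tests.

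In the healthy and interaction comparisons a gene needed 10 or more normalized reads in 5 or more of the libraries compared. For the arthritis genes and score it needed them in 4 or more of all 58 libraries. The healthy comparison used limma 3.58.1 (R 4.3.3) with trend and robust moderation on log2 normalized reads with 1 added. It was fitted on the 10 healthy libraries alone; the interaction used 4 groups, and the arthritis genes all 58 libraries. The threshold was a Benjamini-Hochberg adjusted p of 0.05, two-sided. Library measures were compared by exact permutation over 252 assignments, where the smallest two-sided p is 0.00794. Replicates of a day all differed beyond sampling noise (chi-square over degrees of freedom 8.58 to 81.1). The fit was tested on simulated data.

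Genes named were the 2 per direction with the lowest p at a mean log2 level of 5 or more. The written rule relied on gene symbols and allowed more genes, but no identifier was paired with a symbol, so the gene and marker lists were not analysed here. The arthritis and variable genes named were chosen after their values were seen. The comparison, lists and rules were chosen with earlier results of these data known. Alternatives covered scaling, filters, pseudocounts, voom, weights, a block and each library left out.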

Additional observations from a re-analysis of the deposited data

Results flagged for a closer look

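Among 32 sets of 5 libraries checked for a library far from the rest, 6 held one. Chance gives about 1 in 20 in sets chosen without regard to their values, which does not apply to the genes here, since they were chosen for their values and 2 of them for their spread. ENSRNOG00000013552 stood at 32250 normalized reads in replicate 3 of day 5, with the next at 69482. The same library held 1768 normalized reads of ENSRNOG00000009345, with the next at 119, and 25978 of ENSRNOG00000048273, with the next at 4544. ENSRNOG00000002080 stood at 364 normalized reads in replicate 1 of day 5, with the next at 305, and ENSRNOG00000032441 at 243 in replicate 4 of day 3, with the next at 280. These 5 were each a single library far from the other 4 of its day.

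The row without an identifier, which is no gene of the comparisons, took a larger share of reads in healthy RTD-1 than in naive libraries. The lowest share was 0.00761% on day 5 and 0.00708% on day 3, and the highest naive share was 0.00329%. The means were 0.00890% ± 0.00150 in day 5 libraries and 0.0117% ± 0.00263 in day 3 libraries (SD over 5 libraries a day, exact permutation p = 0.103, 0.172 after adjustment over 5 measures). The day 3 minimum, 0.00708% in replicate 2, was itself far from the next library, at 0.0119%.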

How the results depend on the processing

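The count of 0 genes between day 5 and day 3 was 0 in all 23 alternatives, including each of the 10 libraries left out (0 to 0), with a lowest adjusted p of 0.884. Genes at an unadjusted p under 0.05 numbered 330, and 226 to 591 with a library left out. They numbered 591 without replicate 5 of day 5, 528 without a filter, 506 with TMM factors and array weights, and 53 with all 58 libraries in the fit. The split of 173 higher and 157 lower became 155 and 254 with TMM factors and 134 and 280 with quantile normalization. At the main scaling it became 470 and 121 without replicate 5 of day 5, and 353 and 119 with array weights.

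The interaction count of 0 became 1 with array weights, 3 with TMM factors and array weights, and 10 with PIA replicates 1 to 4 only, and stayed at 0 in the other 38, each library left out among them. The cause was not tested. Its genes at an unadjusted p under 0.05, 915, became 2399 with array weights, 1834 without PIA day 3 replicate 6, 2779 with PIA replicates 1 to 4, 1710 with TMM factors and array weights and 537 without the 2 libraries that stand apart.

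ENSRNOG00000002548, at -0.22 to 1.05 with a library left out, changed sign with array weights (-0.60), without replicate 1 (-0.22) or 3 (-0.10) of day 5, without the 2 libraries that stand apart (-0.39) and with TMM factors and array weights (-0.73). ENSRNOG00000013552 did so without those 2 libraries (0.056).

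Same-numbered libraries of the 2 days did not deviate together (r of -0.38, 0.22, 0.25, -0.03 and -0.02), so the numbers were not taken to pair them. With a replicate block the healthy count was 0 (298 at an unadjusted p under 0.05) and the interaction count 0 (947). Thinning, leaving out the 2 libraries and TMM with array weights were added after the data were seen. With 5 libraries a day, the intervals of low genes were wide; the part of depth was not tested.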
